A study of Mus musculus with 6 samples.

Results

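The genes described here encode the LINC complex, the protein bridge that ties the nucleus to the cytoskeleton, as it is known from the spermatid nucleus. They are the 8 rows of the deposited table, of 55711 in all, that carry the gene names Sun3, Sun5, Spag4, Sun1, Sun2, Syne1, Syne2 and Syne3. They were chosen by name and role and not by a cut on their values, though earlier results of these data were known. Sun3, Sun5 and Spag4 (the gene for SUN4) form the sperm SUN group, Sun1 and Sun2 the general SUN group, and Syne1, Syne2 and Syne3 the nesprins. RNA of mouse testis on the C57BL6 strain was sequenced in 3 libraries labelled Tmc7 knockout (the knockout-labelled libraries below) and 3 libraries labelled heterozygote, the controls, which thus carry the allele as well. Tmc7 encodes a transmembrane channel-like protein, and the series asks how its loss affects elongated spermatids and vesicles of the trans-Golgi network. The labels give neither the age of the mice nor the design of the allele, nor whether each library came from its own animal, so a p-value here speaks of the spread among these libraries, part of which may be technical.

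SUN proteins span the inner nuclear membrane and trap, in the space between both membranes, the KASH tails of nesprins that span the outer membrane. Nesprins then reach actin, microtubule motors or, through plectin, intermediate filaments. In mammals SUN1 and SUN2 serve in nearly all cells, and SUN1 also anchors telomeres to the nuclear envelope in meiotic prophase, together with KASH5. SUN3, SUN4 and SUN5 belong to the spermatid. In the mouse SUN3 and SUN4 lie in the nuclear envelope beside the manchette, the microtubule skirt that shapes the head, and SUN5 sits at the coupling apparatus, where its loss detaches sperm heads from tails. Whole testis holds spermatids beside the other germ cells and the somatic cells that carry the general set.

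Levels are FPKM as deposited, which counts fragments per gene, divided by gene length and scaled for library size. Depth worked back from them was 17397662 to 19343479 reads in the knockout-labelled libraries and 17059486 to 18629233 in the controls. The library size implied by the scaling differed from these totals. It was 19497400 in knockout-labelled library 3, against 18140921 reads, and 16450300 in control library 1, against 17059486 reads. Tmc7 itself was at 43.8, 41.9 and 35.1 FPKM in the knockout-labelled libraries and at 39.1, 37.7 and 37.2 FPKM in the controls, so its level does not check the labels, and every direction below rests on the labels alone. Knockout-labelled libraries 2 and 3 stood apart in 2 ways. Gene models of small and ribosomal RNA took 0.335% and 0.281% of their reads, against 0.0949% in knockout-labelled library 1 and 0.0997% to 0.105% in the controls. Their late spermatid transcripts were also the lowest of the 6 libraries, as given below with the results this touches.

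The promoters of the SUN genes are shown first, because the sperm and the general group differ in sequence at their starts. Each is the RefSeq window in build GRCm38.p6 from 250 bases before to 50 bases after the transcript start, 5′ to 3′ on the gene's strand, for chr2:156064963-156065262 on the plus strand (Spag4), chr11:9048942-9049241 on the minus strand (Sun3), chr2:153871035-153871334 on the minus strand (Sun5), chr5:139200387-139200686 on the plus strand (Sun1) and chr15:79742487-79742786 on the minus strand (Sun2). Capitals mark matches to 6 short motifs searched on both strands.
Spag4: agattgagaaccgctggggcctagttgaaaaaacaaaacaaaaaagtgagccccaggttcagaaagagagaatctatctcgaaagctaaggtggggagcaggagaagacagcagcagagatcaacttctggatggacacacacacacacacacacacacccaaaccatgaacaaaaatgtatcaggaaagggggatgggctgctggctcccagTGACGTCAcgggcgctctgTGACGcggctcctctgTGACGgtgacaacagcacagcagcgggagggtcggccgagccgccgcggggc
Sun3: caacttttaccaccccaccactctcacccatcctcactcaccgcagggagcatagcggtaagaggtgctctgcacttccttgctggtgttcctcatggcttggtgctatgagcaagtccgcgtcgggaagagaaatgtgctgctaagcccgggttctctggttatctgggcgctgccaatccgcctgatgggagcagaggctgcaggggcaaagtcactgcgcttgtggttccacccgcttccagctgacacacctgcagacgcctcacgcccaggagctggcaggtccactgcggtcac
Sun5: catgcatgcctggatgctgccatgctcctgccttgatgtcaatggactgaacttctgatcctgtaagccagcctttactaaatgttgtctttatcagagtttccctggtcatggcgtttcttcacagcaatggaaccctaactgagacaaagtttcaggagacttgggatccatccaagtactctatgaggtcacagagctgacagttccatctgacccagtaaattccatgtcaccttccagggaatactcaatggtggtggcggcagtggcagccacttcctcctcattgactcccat
Sun1: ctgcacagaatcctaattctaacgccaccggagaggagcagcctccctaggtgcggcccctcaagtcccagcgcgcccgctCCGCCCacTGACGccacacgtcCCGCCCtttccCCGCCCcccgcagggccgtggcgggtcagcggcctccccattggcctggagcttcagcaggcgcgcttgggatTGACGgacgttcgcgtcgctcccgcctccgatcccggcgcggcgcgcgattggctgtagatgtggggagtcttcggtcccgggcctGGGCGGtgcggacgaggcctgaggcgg
Sun2: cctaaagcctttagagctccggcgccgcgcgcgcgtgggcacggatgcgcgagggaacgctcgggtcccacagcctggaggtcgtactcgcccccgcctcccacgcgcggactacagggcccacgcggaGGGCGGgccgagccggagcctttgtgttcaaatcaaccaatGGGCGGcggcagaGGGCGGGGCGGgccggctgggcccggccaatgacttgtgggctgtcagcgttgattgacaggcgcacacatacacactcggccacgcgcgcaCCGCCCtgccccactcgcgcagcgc

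The motifs were the palindromic cAMP response element TGACGTCA and its core TGACG, which CREM, an activator of spermatid genes, can bind, the MYB word TAACGG, the RFX word GTTGCC, the GC box CCGCCC bound by SP factors, and the TATA box TATAAA. Spag4 held the full element at bases -37 to -30 from its start. That match contains a core on each strand, and further cores began at -18 and -2, which made 4 core matches in all. The full element was found in 1.79% of all 32817 promoter windows and the core in 20.8%. Neither window of Sun3 and not the single window of Sun5 matched any of the 6 motifs. The GC box stood 4 times in the first window of Sun1 and 5 times in that of Sun2, against none in the 3 sperm SUN genes, and 35.6% of all windows held it. The first windows of Syne1 and Syne2 held it 2 and 3 times, and that of Syne3 did not hold it. The Syne3 window ends at 104998927, inside the deposited gene range, whose 5′ end on the minus strand is 105009809. That end was not searched. The Sun1 window also held the core 2 times without the full element. Among the first windows of the SUN genes, CpG dinucleotides divided the same way. They numbered 14 in Spag4, 13 in Sun3 and 2 in Sun5, against 36 in Sun1 and 39 in Sun2, and the median over all windows was 7. The first window of Syne1, with its 2 GC boxes, held 12, and the second window of Sun1 held 4. No member window held the MYB or the RFX word. All 8 members had at least 1 window in the table, and the second window of Sun1 and of Syne1 held a TATA box, a word present in 13.6% of all windows. These are matches of letters, not measured binding.

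**Figure D1:**
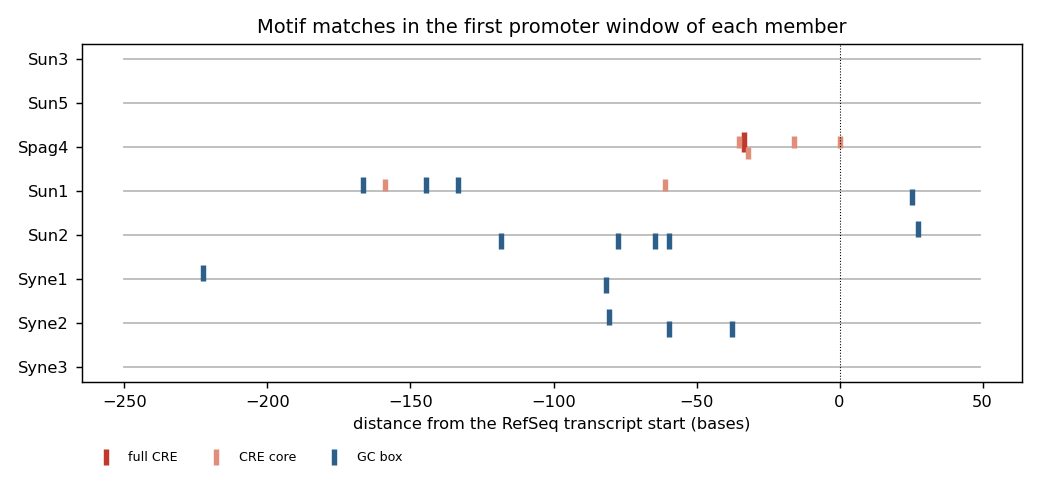
Motif matches in the first RefSeq promoter window of each member, by distance in bases from the transcript start. Marks just above a line are on the gene's strand and marks just below on the other strand. Spag4 has the only full cAMP response element (CRE), and GC boxes lie in Sun1, Sun2, Syne1 and Syne2.

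In GRCm38 the sperm SUN genes lie on chromosome 11 from 9016054 to 9048991 (Sun3, minus strand, ENSMUSG00000040985), chromosome 2 from 153856188 to 153871084 (Sun5, minus strand, ENSMUSG00000027480) and chromosome 2 from 156065175 to 156070617 (Spag4, plus strand, ENSMUSG00000038180). Sun1 (ENSMUSG00000036817) lies on chromosome 5 from 139200637 to 139249840 (plus strand) and Sun2 (ENSMUSG00000042524) on chromosome 15 from 79724070 to 79742536 (minus strand). The nesprin genes are longer. Syne1 (ENSMUSG00000096054) runs from 5020917 to 5551482 on the minus strand of chromosome 10, Syne2 (ENSMUSG00000063450) from 75818134 to 76110926 on the plus strand of chromosome 12, and Syne3 (ENSMUSG00000054150) from 104929933 to 105009809 on the minus strand of chromosome 12.

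Per deposited gene length, all 3 sperm SUN genes were at a higher level than any general SUN gene or nesprin, in each of the 6 libraries. The mean over all libraries was 45.8 FPKM for Sun5 (range 42.6 to 48.4), 42.7 FPKM for Sun3 (31.7 to 52.6) and 38.8 FPKM for Spag4 (33.6 to 45.02). Sun1 followed at 18.7 FPKM (17.6 to 19.97), Syne2 at 8.04 FPKM (6.95 to 9.72), Sun2 at 7.55 FPKM (6.21 to 10.4), Syne3 at 4.40 FPKM (3.49 to 5.77) and Syne1 at 0.417 FPKM (0.358 to 0.489). The ranges of neighbouring sperm SUN genes overlapped, as did those of Syne2 and Sun2, so their order is not settled, while each other step in this order held in 6 of 6 libraries. Against the 13477 protein-coding genes that averaged 0.5 FPKM or more, Sun5, Sun3 and Spag4 stood at percentiles 89.9, 89.2 and 88.1. Sun1 stood at percentile 77.0, Syne2 at 59.3, Sun2 at 57.7 and Syne3 at 44.4, and Syne1 lay below the filter.

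The order among the members depended on the length that reads were divided by. The deposited length is the union of all annotated exons, and for Spag4 it is 4831 bases, since retained-intron transcripts are part of its gene model, while its principal transcript has 1473 bases. Per length of the principal transcript, Spag4 was at 119.6 ± 13.1 FPKM in the knockout-labelled libraries and 134.9 ± 14.9 FPKM in the controls (SD, n = 3 each), above Sun5 and Sun3. Sun5 was at 47.9 ± 3.19 FPKM in the knockout-labelled libraries and 49.5 ± 2.01 FPKM in the controls, and Sun3 at 41.9 ± 12.3 FPKM in the knockout-labelled libraries and 50.1 ± 6.31 FPKM in the controls. On that scale Spag4 stood clear of both in all libraries, with a lowest value of 110.3 FPKM. Sun1, whose deposited length of 7596 bases exceeds a principal transcript of 4134 bases, averaged 34.3 FPKM over the 6 libraries on that scale. In knockout-labelled libraries 2 and 3 it was above Sun3 there, with 36.7 and 35.3 FPKM for Sun1 and 35.4 and 34.2 FPKM for Sun3, and in the other 4 libraries below it. Sun2 averaged 11.04, Syne2 9.91, Syne3 7.27 and Syne1 0.606 FPKM on that scale. Which transcripts the reads came from cannot be seen in gene totals, so both scales are given.

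**Figure D2:**
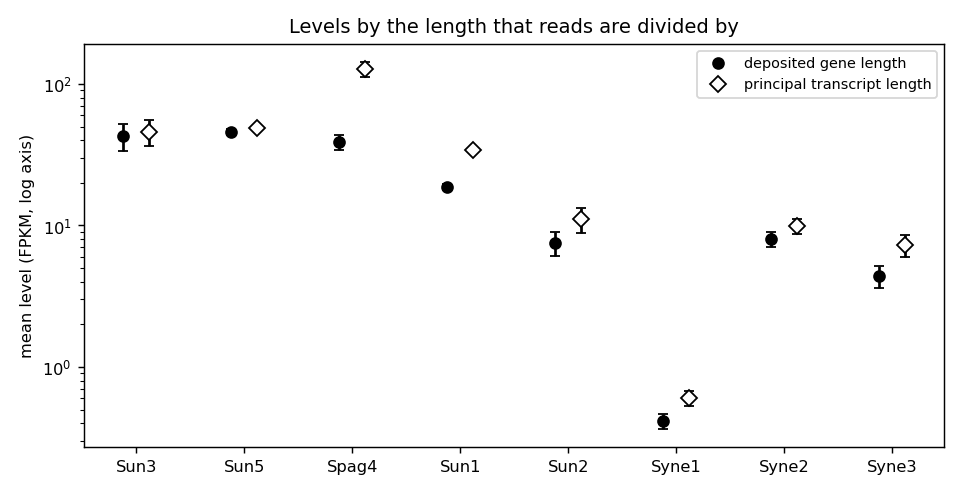
Mean level of each member over 6 libraries in FPKM (log axis, bars are SD) by the deposited gene length and by the length of the GENCODE M21 principal transcript. Spag4 moves from 38.8 to 127.2 FPKM, and the nesprin Syne1 stays lowest on both scales.

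No member passed the test between knockout-labelled libraries and controls. Of the 8 members, 7 averaged 0.5 FPKM or more and were tested with limma on log2(FPKM + 1), and 0 of them had a Benjamini-Hochberg adjusted p under 0.05. Over all 19168 genes tested the share called was 0%, with 0.328 as the lowest adjusted p. Unadjusted, 0 of the 7 members had a p under 0.05, against 3.87% of all genes tested. Without knockout-labelled library 1 the limma count of unadjusted p under 0.05 was 2 of 7 members (Sun3 and Syne3), beside 1503 genes higher and 1990 lower of 19211 tested, and 0 genes passed the adjustment. By limma-voom on the recovered reads 0 of 8 members passed and 0 had an unadjusted p under 0.05, while 1 gene of 20556 passed over the whole table (0.00486%) and 3.8% had an unadjusted p under 0.05. The members' values are therefore given as levels with their intervals. All differences below are labelled knockout minus control on the log2(FPKM + 1) scale, a scale on which changes of low genes come out too small.

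The sperm SUN genes had lower means in the knockout-labelled libraries, unequally so. Sun3, the manchette-side SUN protein, was at 52.0, 32.8 and 31.7 FPKM in the knockout-labelled libraries and at 52.6, 46.1 and 40.9 FPKM in the controls. Knockout-labelled libraries 2 and 3 lay below every control, and library 1 lay beside the highest control, so the groups overlapped. The means were 38.9 ± 11.4 FPKM in the knockout-labelled libraries and 46.5 ± 5.86 FPKM in the controls (SD, n = 3 each), a difference of -0.28 ± 0.20 (SE) with a 95% interval of -0.75 to 0.19 (limma adjusted p = 0.868). The size rested on single libraries: it was -0.51 without knockout-labelled library 1 (95% interval of -0.80 to -0.21, limma adjusted p = 0.158), -0.18 without knockout-labelled library 2 and -0.16 without knockout-labelled library 3.

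Spag4, whose loss in the mouse disorders the manchette and leaves rounded sperm heads, was at 41.04, 34.7 and 33.6 FPKM in the knockout-labelled libraries and at 45.02, 42.2 and 36.1 FPKM in the controls. Knockout-labelled libraries 2 and 3 were again the lowest of the 6, close under control library 3. Its difference was -0.17 ± 0.12 (SE) with a 95% interval of -0.45 to 0.11 (limma adjusted p = 0.868). Sun5, the coupling apparatus protein, was at 48.4, 42.6 and 44.1 FPKM in the knockout-labelled libraries and at 47.96, 44.4 and 47.1 FPKM in the controls. Its values spread least among the sperm SUN genes, with a coefficient of variation of 5.20% over the 6 libraries, against 11.9% for Spag4 and 21.4% for Sun3. Its difference was -0.05 ± 0.09 (SE) with a 95% interval of -0.25 to 0.16 (limma adjusted p = 0.916), and with quantile normalization it was 0.0042.

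Of the general SUN genes, Sun1, which also carries the meiotic telomere link, was at 18.6, 19.97 and 19.2 FPKM in the knockout-labelled libraries and at 17.6, 18.3 and 18.4 FPKM in the controls. All 3 knockout-labelled libraries lay above all controls, which made Sun1 the 1 member of 8 whose groups did not overlap. Among all genes tested the groups did not overlap in 8.56%, and in 4.15% with the knockout-labelled libraries higher. The difference was small, 0.09 ± 0.08 (SE) with a 95% interval of -0.10 to 0.27 (limma adjusted p = 0.868). Sun2, the other SUN protein of most cells, was at 6.66, 10.4 and 7.49 FPKM in the knockout-labelled libraries and at 6.93, 7.60 and 6.21 FPKM in the controls. Knockout-labelled library 2 was the only one above the controls, and without it the difference was 0.03, against 0.20 ± 0.16 (SE) in all 6 libraries (95% interval of -0.18 to 0.58, limma adjusted p = 0.868).

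Among the nesprins, Syne3, whose product binds plectin, had the highest difference of any member. It was at 4.16, 5.77 and 4.69 FPKM in the knockout-labelled libraries and at 3.86, 3.49 and 4.44 FPKM in the controls. Knockout-labelled libraries 2 and 3 lay above all controls and library 1 lay between them. The difference was 0.25 ± 0.14 (SE) with a 95% interval of -0.07 to 0.57 (limma adjusted p = 0.868). Syne2, an actin-binding giant nesprin, was at 6.95, 9.72 and 8.15 FPKM in the knockout-labelled libraries and at 7.29, 7.61 and 8.54 FPKM in the controls. Knockout-labelled library 1 was the lowest of the 6 and library 2 the highest. Its difference of 0.07 ± 0.13 (SE, limma adjusted p = 0.92) turned to -0.044 without knockout-labelled library 2.

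Syne1, the other giant nesprin, was at 0.358, 0.464 and 0.388 FPKM in the knockout-labelled libraries and at 0.389, 0.489 and 0.416 FPKM in the controls, below the filter. Its long gene model of 40491 bases still gave 274, 326 and 306 reads in the knockout-labelled libraries and 259, 367 and 324 reads in the controls. By limma-voom on those reads its difference was -0.11 ± 0.16 (SE, limma adjusted p = 0.9). Reads over all 8 members ran from 259 to 4506 per library.

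**Figure D3:**
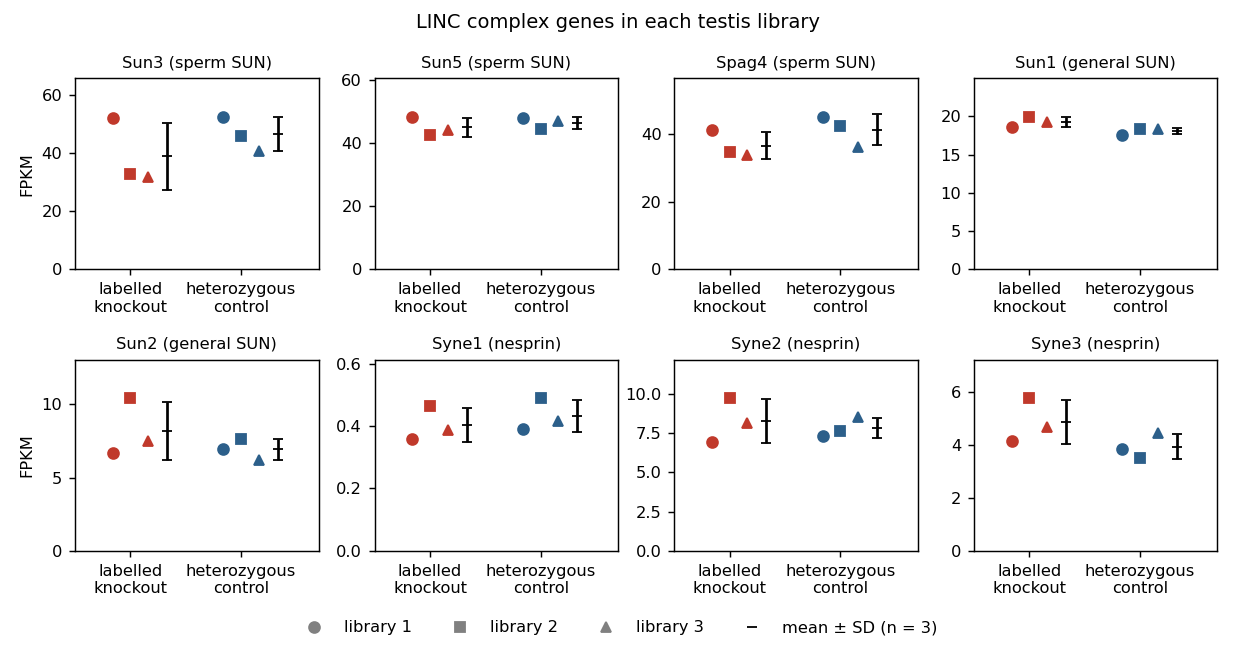
FPKM of each member in each library (symbols by library number, axes from 0), with mean and SD beside each group of 3. Knockout-labelled libraries 2 and 3 are the lowest of the 6 for Sun3 and Spag4, and all 3 knockout-labelled libraries lie above the controls for Sun1, at 18.6 FPKM or more.

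**Figure D4:**
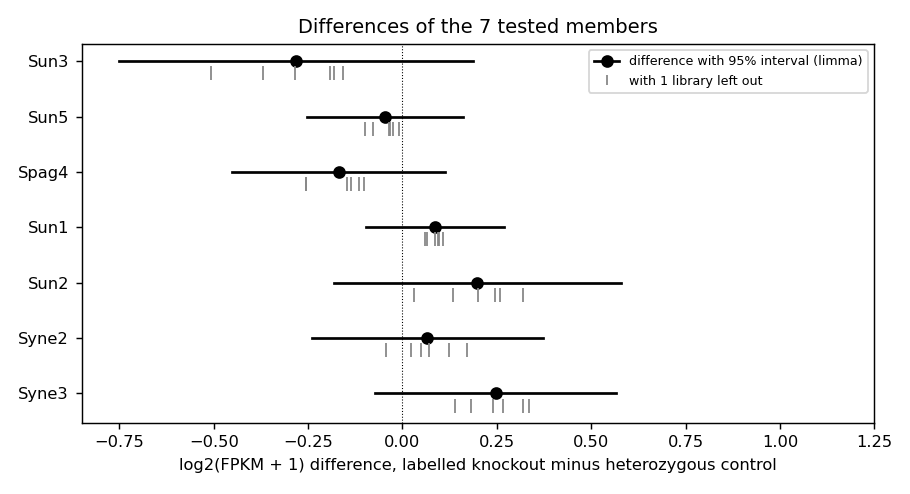
Difference of each tested member on the log2(FPKM + 1) scale, labelled knockout minus heterozygous control, with the 95% interval from limma (points and lines) and the differences with 1 library left out (ticks). Every interval crosses 0, and the 3 sperm SUN genes lie left of 0 while Sun1, Sun2, Syne2 and Syne3 lie right of it.

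Set side by side, sperm SUN transcripts outweighed general SUN transcripts in every library. The summed FPKM of Sun3, Sun5 and Spag4 was 141, 110.1 and 109 in the knockout-labelled libraries and 146, 133 and 124 in the controls. The sum of Sun1 and Sun2 was 25.3, 30.4 and 26.7 FPKM in the knockout-labelled libraries and 24.5, 25.9 and 24.6 FPKM in the controls. The sperm sum was thus 5.59, 3.62 and 4.10 times the general sum in the knockout-labelled libraries and 5.93, 5.12 and 5.05 times in the controls, and knockout-labelled library 1 fell within the range of the controls. The mean log2 ratio was 2.13 ± 0.32 in the knockout-labelled libraries and 2.42 ± 0.13 in the controls (SD, n = 3 each). By principal transcript length the sums stood at 4.46 ± 0.923 times in the knockout-labelled libraries and 5.41 ± 0.541 times in the controls. The ratio joins genes picked with earlier results known and was not tested. Within the 5 SUN genes, Spag4 held 24.6% to 24.7% of the summed FPKM in the knockout-labelled libraries and 24.3% to 26.6% in the controls, while Sun3 held 23.3% to 31.2% in the knockout-labelled libraries and 27.5% to 30.9% in the controls. Sun5 held 29.0% to 32.4% in the knockout-labelled libraries and 28.0% to 31.7% in the controls.

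Sun3 and Spag4 ranked the libraries much as other spermatid transcripts did, and Sun5 less closely. All 12 late spermatid markers were lower on average in the knockout-labelled libraries, with a median difference of -0.44, beside a median of -0.01 over all genes tested, and 0 of them passed. Their mean centred level was 0.34, -0.37 and -0.64 in the knockout-labelled libraries and 0.48, 0.31 and -0.12 in the controls. Sun3 put the 6 libraries in the same order as that level, and Spag4 did so but for control library 2 and knockout-labelled library 1, which changed places. Sun5 departed from the order in some neighbouring pairs and kept it otherwise. It put knockout-labelled library 1 above control library 1, control library 3 above control library 2, and knockout-labelled library 3 above knockout-labelled library 2. Summed over the list, late spermatid markers ran from 9158 to 17701 FPKM in the knockout-labelled libraries and from 12207 to 20820 FPKM in the controls, led by Tnp2, a transition protein of spermatid chromatin. Of 10 round spermatid markers 9 were lower and 1 higher, with a median of -0.13, and summed to 783 to 999 FPKM in the knockout-labelled libraries and 858 to 1025 FPKM in the controls, with Tssk2 the highest. None of the markers of either list was at 0 in any library. In whole testis, fewer spermatids and less RNA per spermatid cannot be told apart. The part of these shifts in the values of the members was not tested.

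Markers of most somatic cell types were higher on average in the knockout-labelled libraries, as were the general SUN genes. All 10 Sertoli markers were higher on average in the knockout-labelled libraries, with a median difference of 0.24, and the list summed to 455 to 590 FPKM there and 452 to 480 FPKM in the controls, with Clu the highest. All 9 tested leukocyte markers were higher, with a median of 0.24 and sums of 48.9 to 67.7 FPKM in the knockout-labelled libraries and 45.04 to 48.8 FPKM in the controls, with Lyz2 the highest. Peritubular myoid markers were higher in 5 of 6 (median 0.30). The exception was Actg2, the most abundant of them, with a difference of -0.30. Endothelial markers were higher in 4 of 5 (median 0.08), while Leydig markers were lower in 6 of 8 (median -0.19). Spermatocyte markers were lower in 6 of 10 (median -0.13) and spermatogonial ones higher in 6 of 10 (median 0.12). Of all markers in these lists 0 passed and none was at 0 in any library. Sums were 3861 to 4370 FPKM in the knockout-labelled libraries and 4042 to 4620 FPKM in the controls for spermatocyte markers, led by Ldhc. Spermatogonial markers summed to 55.7 to 79.2 FPKM in the knockout-labelled libraries and 58.3 to 64.02 FPKM in the controls, led by Uchl1, and Leydig markers to 223 to 387 FPKM in the knockout-labelled libraries and 329 to 376 FPKM in the controls, led by Cyp17a1. Myoid markers summed to 144 to 191 FPKM in the knockout-labelled libraries and 165 to 193 FPKM in the controls, with Actg2 the highest, and endothelial ones to 6.10 to 9.43 FPKM in the knockout-labelled libraries and 6.09 to 7.73 FPKM in the controls, with Cdh5 the highest. Sun2, Syne2 and Syne3 were highest in knockout-labelled library 2, which also had the highest mean centred myoid and endothelial marker levels of the 6 libraries. Sertoli and leukocyte levels were highest in knockout-labelled library 3, and the spermatocyte level was lowest in knockout-labelled library 2. For the mean profile of Sun1 and Sun2, Pearson r was 0.91 with the myoid level and 0.71 with the endothelial level. It was 0.56 with the Sertoli, 0.53 with the leukocyte, 0.04 with the Leydig and -0.99 with the spermatocyte level. The mean profile followed Sun2 (r = 0.99) more closely than Sun1 (r = 0.84). Sun1 alone had r = 0.81 with the Sertoli and 0.79 with the leukocyte level, and Sun2 alone 0.47 and 0.43. The part of these cells in the general SUN and nesprin values was not tested.

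**Figure D5:**
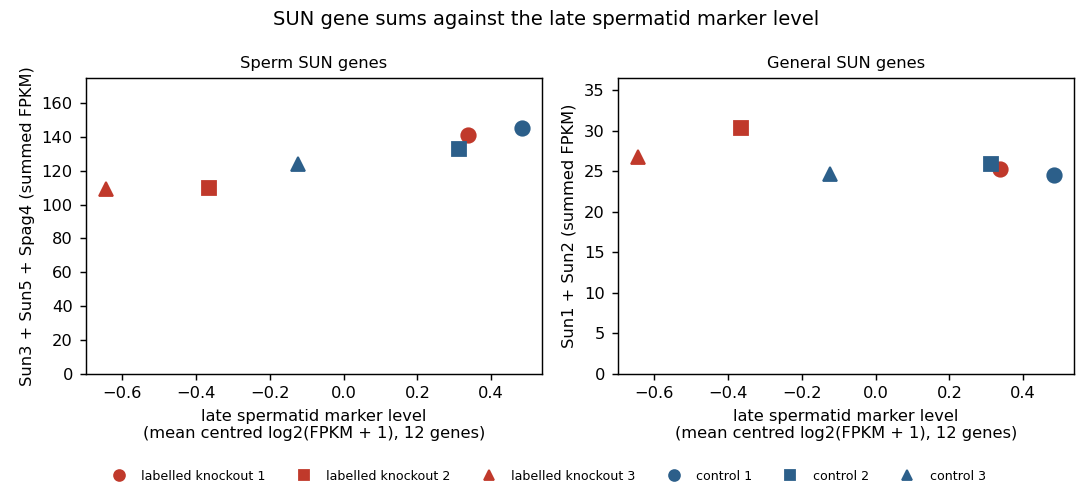
Summed FPKM of the sperm SUN genes (left) and of the general SUN genes (right) in each library against the mean centred log2(FPKM + 1) level of 12 late spermatid markers. The sperm sum is lowest, at 109 and 110.1 FPKM, in the libraries with the lowest late spermatid level, which are knockout-labelled libraries 3 and 2.

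The genes most like the sperm SUN profile over the 6 libraries, by Pearson r of log2(FPKM + 1) among 4567 protein-coding genes that averaged 10 FPKM or more, were Hmox2, a haem oxygenase (r = 0.998), Tex48, a testis-expressed gene (r = 0.998), and H2al2a, a histone variant of condensing spermatids (r = 0.997). Hmox2 was at 153, 93.0 and 88.0 FPKM in the knockout-labelled libraries and at 161, 132 and 114 FPKM in the controls, which is the order of Sun3. Closest to the profile of Sun1 and Sun2 were Mars, a methionyl-tRNA synthetase (r = 0.983), Dot1l, a histone methyltransferase (r = 0.973), and Neurl4 (r = 0.972). Dot1l was at 57.8, 77.4 and 65.8 FPKM in the knockout-labelled libraries and at 58.02, 59.4 and 56.6 FPKM in the controls, with knockout-labelled library 2 highest as for Sun2. These r values are a description over 6 libraries that differed in depth and in marker levels, differences that all genes of a library share. Each r is the highest of many.

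Partners of the complex gave 0 genes that passed in any list. KASH5, the partner of SUN1 at meiotic telomeres, is listed under its older symbol Ccdc155 and was at 35.5, 44.3 and 46.5 FPKM in the knockout-labelled libraries and at 38.4, 39.3 and 42.1 FPKM in the controls. Knockout-labelled library 1 was the lowest of the 6 and libraries 2 and 3 the highest. Its level exceeded that of each nesprin in every library. The KASH genes Syne4 and Lrmp were under the filter. Syne4 was at 0.195 ± 0.209 FPKM in the knockout-labelled libraries and 0.395 ± 0.126 FPKM in the controls, and Lrmp at 0.129 ± 0.0359 FPKM in the knockout-labelled libraries and 0.172 ± 0.0588 FPKM in the controls (SD, n = 3 each). Of the 7 genes for telomere attachment, Ccdc155 among them, 3 were higher and 4 lower on average (median -0.11). Spdya, the telomere-bound activator of Cdk2, was at 24.3 ± 4.18 FPKM in the knockout-labelled libraries and 29.2 ± 0.774 FPKM in the controls (SD, n = 3 each). Cdk2 itself was at 12.6 ± 1.98 FPKM in the knockout-labelled libraries and 12.1 ± 0.950 FPKM in the controls, and Terb1, a telomere adaptor of meiosis, at 9.93 ± 2.28 FPKM in the knockout-labelled libraries and 11.3 ± 1.77 FPKM in the controls.

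Head-tail coupling genes had 11 of 14 members lower and 3 higher on average, with a median of -0.16. Odf1, an outer dense fibre protein, was at 847 ± 260 FPKM in the knockout-labelled libraries and 1084 ± 259 FPKM in the controls (SD, n = 3 each). Oaz3, a testis antizyme, was at 159 ± 53.1 FPKM in the knockout-labelled libraries and 196 ± 44.6 FPKM in the controls. Pmfbp1, which works with SUN5 at the coupling apparatus, was at 188, 176 and 107 FPKM in the knockout-labelled libraries and at 192, 165 and 143 FPKM in the controls, so that knockout-labelled library 3 alone lay below the controls. Spata6, needed to form the connecting piece, was at 131 ± 36.4 FPKM in the knockout-labelled libraries and 162 ± 22.7 FPKM in the controls. Odf1 and Oaz3 are also among the late spermatid markers above.

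Nuclear and acrosomal anchors of the spermatid had 4 of 5 members lower and 1 higher, with a median of -0.22. Spata16, linked to the acrosome, was at 146 ± 10.7 FPKM in the knockout-labelled libraries and 142 ± 10.5 FPKM in the controls (SD, n = 3 each). Spata46 of the spermatid nuclear envelope was at 125 ± 17.2 FPKM in the knockout-labelled libraries and 126 ± 14.6 FPKM in the controls. Spaca1 of the acrosomal membrane was at 70.0 ± 16.7 FPKM in the knockout-labelled libraries and 85.2 ± 7.92 FPKM in the controls. Dpy19l2, the inner nuclear membrane protein that holds the acrosome, was at 69.8 ± 10.3 FPKM in the knockout-labelled libraries and 81.1 ± 3.47 FPKM in the controls. Spaca1, Zpbp and Spata16 also stand in the round spermatid list.

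Genes of the nuclear lamina and inner membrane, the general bed of SUN proteins, were divided, with 7 of 16 higher and 9 lower and a median of -0.01. Banf1, which bridges chromatin to the envelope, was at 48.6 ± 10.1 FPKM in the knockout-labelled libraries and 42.4 ± 1.21 FPKM in the controls (SD, n = 3 each). Tor1aip1, a torsin cofactor, was at 36.3 ± 6.55 FPKM in the knockout-labelled libraries and 40.3 ± 1.90 FPKM in the controls. Nrm, an inner membrane protein, was at 30.9 ± 1.15 FPKM in the knockout-labelled libraries and 31.9 ± 6.05 FPKM in the controls, and Lmnb2, a B-type lamin, at 26.99 ± 1.37 FPKM in the knockout-labelled libraries and 24.8 ± 1.61 FPKM in the controls.

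Part of the Sun3, Sun1 and Sun2 values is uncertain, because no source used here says whether counting took strand into account. The antisense gene Gm11992 shares 123 exon bases with Sun3, 9.47% of its exons, and stood at 22.1 FPKM in the knockout-labelled libraries and 24.7 FPKM in the controls on average. The antisense gene 4930520M14Rik shares 302 exon bases with Sun1, or 3.98%, and stood at 1.09 FPKM in the knockout-labelled libraries and 2.52 FPKM in the controls. The antisense gene Gm16575 shares 147 exon bases with Sun2, or 2.71%, and stood at 0.141 FPKM in the knockout-labelled libraries and 0.112 FPKM in the controls. Sun5 and Syne3 shared 0% of their 31-base words with transcripts of other genes, and the other 6 shared 0.00742% to 7.41%, where the 7.41% of Sun3 all lay in Gm11992 and 1.93% of the 2.20% of Sun2 lay in Gm16575.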

How the data were processed

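Testis RNA of 6 libraries was extracted with Trizol and made into SMARTER mRNA-Seq libraries, per the labels' protocols. The authors deposited FPKM per gene with gene length and position. GRCm38 and mm10 are the builds in the submitters' processing notes, and neither aligner, counter, annotation release nor strand handling is stated in any source used here. FPKM times gene length was a whole multiple of 1 read for 99.997% to 100% of values above 0, within 0.05 reads, which gave read totals. Limma 3.58.1 (R 4.3.3; lmFit, eBayes with trend, group only) was run on log2(FPKM + 1) of genes averaging 0.5 FPKM or more, two-sided, with Benjamini-Hochberg adjustment over all genes tested. The procedure was tested on simulated data. Limma-voom used genes with a mean of at least 10 recovered reads. Motifs, exon overlaps and 31-base words came from RefSeq promoter windows (GRCm38.p6) and GENCODE M21, whose coordinates and exon lengths equalled the deposited ones for the 8 members.

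The members, lists and tests were chosen with earlier results of these data known. All 8 members are named. From each partner list the 4 tested genes of highest mean FPKM are named, from marker lists the highest gene, and 3 genes per likeness profile. Syne4, Lrmp, Zpbp and the antisense genes were named after their values were seen. Alternatives were another pseudocount, other filters, other scalings, limma-voom, a replicate block, each library left out and, chosen after seeing the data, principal transcript lengths.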

Additional observations from a re-analysis of the deposited data

How the results depend on the processing

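No member passed under any of the 13 alternatives, and the smallest adjusted p of any member was 0.158 (Sun3 without knockout-labelled library 1). Sun3, Spag4, Sun1, Sun2, Syne1 and Syne3 kept their direction in every alternative run for them, where Syne1 has no value with a minimum mean of 2 FPKM and was at -6.27e-05, close to 0, without control library 2. The direction turned in 2 cases: Sun5 was 0.0042 with quantile normalization, and Syne2 was -0.044 without knockout-labelled library 2, where the cause was not tested. With 1 library left out at a time, the difference ran from -0.51 to -0.16 for Sun3, from -0.10 to -0.01 for Sun5, from -0.26 to -0.10 for Spag4, from 0.06 to 0.11 for Sun1, from 0.03 to 0.32 for Sun2, from -0.06 to -6.27e-05 for Syne1, from -0.044 to 0.17 for Syne2 and from 0.14 to 0.34 for Syne3. Over all genes, limma-voom called 1 gene and every other setting 0. The difference of the sperm over general SUN log2 ratio was -0.29, and -0.47 to -0.16 with 1 library left out. Replicate numbers are shared between groups, but the labels do not say that they pair samples, so the fit by group alone left them unpaired. Deviations of same-numbered libraries correlated at 0.286, 0.0413 and 0.198, and those of different-numbered libraries at -0.322 to 0.17. These values do not settle whether the numbers pair samples. With the replicate number as a block 0 genes and 0 members passed. Sun3 then had a difference of -0.28 ± 0.11 (SE), with a 95% interval of -0.56 to 0.0007 (limma adjusted p = 0.662). By limma with the block, 405 genes higher and 1006 lower of 19168 had an unadjusted p under 0.05, against 284 and 457 without it. Levels by principal transcript length, an alternative chosen after seeing the data, moved Spag4 from 38.8 to 127.2 FPKM. At 3 libraries a group, the 95% interval of Sun3 without the block still spans -0.75 to 0.19. That interval includes 0, so these libraries settle neither whether Sun3 differed nor by how much.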
